A study of Mus musculus with 6 samples.

Results

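The neurotransmitter receptor genes described here are the subunit genes of the ionotropic and metabotropic glutamate receptors, of the GABA-A and glycine receptors and of the nicotinic acetylcholine receptors of the mouse retina. They were chosen by gene symbol (Gria, Grin, Grid, Grik, Grm, Gabr, Glra, Glrb and Chrn), after the RefSeq accession of each probe had been matched to its current symbol. Grik1 and a metabotropic glutamate receptor gene were not analysed here. This gave 65 of the 19751 genes with a symbol, by 82 of the 39429 probes on the array, and 56 of the 65 genes had a probe that passed the filter on dim probes. The rule also took in Grid2ip, which encodes delphilin, a synaptic scaffold protein and no receptor itself.

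Adult male C57BL/6 mice, 12 per group, were injected into the vitreous of the right eye with 1 µM of SH-42, 1 µM of SH-80, or phosphate-buffered saline as the control, and retinas were taken at day 7. The labels pool 4 retinas to a tube and give SH-42 and SH-80 only as code names. RNA was measured on 6 arrays with 2 channels each, 3 arrays for SH-42 and 3 for SH-80. By the labels, Cy3 held the RNA of compound-treated retinas and Cy5 that of control retinas on every array, with no dye exchange. Every ratio below is log2 of Cy3 over Cy5, so a positive value is higher in the compound channel by the labels. The deposited value table runs the other way, Cy5 over Cy3, so the direction against control is not settled, and every sign below would turn if Cy5 held the treated RNA. A dye effect particular to a gene cannot be told apart from a treatment effect in a ratio against control, whereas it cancels in SH-42 minus SH-80. At 4 retinas a tube, 12 control mice give 3 tubes for 6 arrays, so control tubes may have been shared between the compounds. The labels do not say that the arrays of a compound came from separate tubes, and p-values measure the spread between these arrays.

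Glutamate carries the signal of photoreceptors and bipolar cells towards the ganglion cells, through AMPA, NMDA and kainate receptors, which are ion channels, and through metabotropic receptors, which act by G proteins. GABA and glycine, released by horizontal and amacrine cells, act on chloride channels of the GABA-A and glycine families, among them the rho subunits known from bipolar cells. Acetylcholine from starburst amacrine cells acts on nicotinic channels, whose neuronal subunits are expressed in amacrine and ganglion cells, while the muscle-type subunits are known from the neuromuscular junction.

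The share of spots well above background was 58.3% to 63.1% in the Cy3 channels and 70.9% to 76.7% in the Cy5 channels, with none saturated. With 3 arrays for each compound, the number of arrays sets the precision. SH-42 replicates 1 and 2 were on slide 1, and SH-42 replicate 3 shared slide 2 with the 3 SH-80 arrays. SH-42 replicate 1 stood apart: across all features the correlation of its ratios with those of any other array was -0.16 to 0.16, while that among the other 5 was 0.47 to 0.87. On SH-42 replicate 2 the ratios lay closest to 0, with a standard deviation of 0.16 over all features. All 10 rod markers, all 10 bipolar, all 10 amacrine and all 10 ganglion cell markers passed the filter, so defining markers of retinal neurons were measured. Markers of skeletal muscle (10 of 12 listed) and of lens (10 of 10) also passed. Their levels, as log2 of the summed signal of a list, moved widely between control channels. They ran from 10.79 to 14.69 for the muscle list and from 16.93 to 19.96 for the lens list.

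With SH-80, 3 of the 56 receptor genes changed against control at an adjusted p under 0.05 (limma, Benjamini-Hochberg over 24089 features): Chrnd rose, and Gabrg3 and Grm2 fell. Over all features 4.62% were called higher and 10.1% lower, against 1.8% and 3.6% of the receptor genes. The median log2 ratio of the receptor genes was 0.03, with 32 of 56 above 0, and that of all features was -0.03, with 44.4% above 0. At an unadjusted p under 0.05 there were 10 receptor genes (17.9%), 3 higher and 7 lower, and 35.5% of all features.

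Chrnd, the delta subunit of the muscle-type nicotinic receptor, had log2 ratios of 0.90, 1.06 and 0.98 on the 3 SH-80 arrays and of 0.77, 0.10 and 1.00 on the 3 SH-42 arrays. All 6 were positive, the SH-80 values lay close together, and the SH-42 values overlapped them, with replicate 2 near 0. The fitted log2 ratio with SH-80 was 0.98 ± 0.16 (SE, n = 3 arrays, limma adjusted p = 0.028). The single probe was dim: Cy3 was well above background on 2 of the 3 SH-80 arrays and Cy5 on none of them. Over the 6 arrays it passed the filter only through Cy3 (3 arrays, against 1 in Cy5), the channel in which it was called higher, so its selection and its call share a channel. Over the alternative settings the value with SH-80 ranged from 0.70 to 3.89, the highest in the deposited value table. With Cy5 raised to the floor set on such probes, the mean of Chrnd was 1.92-fold higher in the SH-80 channel, a bound on the mean alone. That bound leaves out the spread between arrays and takes Cy3 as measured, although Cy3 was dim on SH-80 replicate 1. It is no lower limit on the change, since the alternative settings reached down to a log2 ratio of 0.70. With SH-42 the log2 ratio was 0.62 ± 0.16 (SE, n = 3 arrays, adjusted p = 0.14), which did not pass. It passed under 5 alternatives by limma: without background correction (0.85, adjusted p = 0.0070), from processed signals (2.94, 0.027), in the deposited value table (2.92, 0.028), with median centring (0.88, 0.013) and within slide 2 (1.00, 0.018).

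Gabrg3, the gamma-3 subunit of the GABA-A receptor, had log2 ratios of -0.41, -0.45 and -0.40 on the SH-80 arrays and of -0.20, -0.07 and -0.19 on the SH-42 arrays. All 6 were negative, and the compounds did not overlap. The fitted log2 ratio with SH-80 was -0.42 ± 0.05 (SE, n = 3 arrays, limma adjusted p = 0.022), and with SH-42 it was -0.16 ± 0.05 (adjusted p = 0.17). Under 3 alternatives Gabrg3 also passed with SH-42 by limma. These were no background correction (-0.25, adjusted p = 0.030), processed signals (-0.66, 0.021) and the deposited value table (-0.69, 0.017). The Cy3 signal was well above background on 4 of 6 arrays and the Cy5 signal on all 6. A dimmer second probe of Gabrg3 averaged -0.34 with SH-80 and -0.13 with SH-42. That probe passed the filter only through Cy5 (5 arrays), the channel in which it was high. Its Cy3 was not well above background on any array.

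Grm2, a metabotropic glutamate receptor that couples to inhibitory G proteins, had log2 ratios of -0.35, -0.41 and -0.43 on the SH-80 arrays and of -0.01, -0.12 and -0.32 on the SH-42 arrays. The SH-80 arrays lay together below the SH-42 arrays, of which replicate 3 came closest. The fitted log2 ratio with SH-80 was -0.40 ± 0.07 (SE, n = 3 arrays, limma adjusted p = 0.029), and with SH-42 it was -0.15 ± 0.07 (adjusted p = 0.26). Median centring gave Grm2 -0.37 with SH-42, which passed (limma adjusted p = 0.029). Its probe was well above background in both channels on all arrays. On slide 2, the Cy3 level of Grm2 was 9.23 with SH-42 and 9.08, 9.08 and 9.04 with SH-80, and the Cy5 level was 9.55 on the SH-42 array and 9.43, 9.49 and 9.47 on the SH-80 arrays. Within that slide SH-42 minus SH-80 was 0.077.

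Marker lists of cell types also lay away from 0 with SH-80. The median fitted log2 ratio was -0.24 for ganglion cell (0 of 10 positive), -0.19 for rod (3 of 10), -0.16 for amacrine (3 of 10), -0.12 for bipolar (2 of 10) and -0.14 for horizontal cell markers (1 of 6, with 2 called lower). It was 0.10 for Muller glia (6 of 8 positive, 1 called lower), 0.67 for pigment epithelium (4 of 5, 1 called higher) and -0.73 for cornea epithelium (0 of 6, 1 called lower). For lens it was 1.38 (10 of 10, 3 called higher), for microglia 0.88 (9 of 10, 1 called lower) and for skeletal muscle -0.17 (4 of 10). Of all features 4.62% were called higher and 10.1% lower with SH-80, and 44.4% were positive. The median log2 ratio of the 10 microglia markers was 0.75, 0.82 and 1.07 on SH-80 replicates 1 to 3, with 9 of 10 positive each time, and -1.66, 0.02 and 1.05 on SH-42 replicates 1 to 3. That of the 10 lens markers was 2.74, -1.17 and 2.57 with SH-80 and 1.54, 0.10 and -0.75 with SH-42. Their part in the receptor ratios was not tested.

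These calls rest on how the spread was estimated. Without any 1 of the 3 SH-80 arrays, 0 receptor genes and 0 of all features were called, although 3 to 5 receptor genes passed at an unadjusted p. Without SH-42 replicate 1, whose spread enters the shared error, 20 were called with SH-80, 9 higher and 11 lower, where 16.0% of all features were called higher and 22.8% lower. The shares of the receptor genes were 16.1% and 19.6%. From the SH-80 arrays alone, all on slide 2, 17 were called, 7 higher and 10 lower, or 30.4%, where 38.2% of all features were called. Among the 20 were Grik4 (0.50 ± 0.11, SE, n = 3), a kainate subunit, Gabrd (0.34 ± 0.07), a GABA-A subunit known from tonic inhibition, and Glra1 (0.31 ± 0.07), a glycine receptor alpha subunit, all higher. Also among them were Glra3 (-0.46 ± 0.11), another alpha subunit, Grm7 (-0.27 ± 0.05), a presynaptic metabotropic receptor, and Chrna2 (-0.27 ± 0.05), a nicotinic alpha subunit, all lower. Glra3 passed the filter only through Cy5 (5 arrays), the channel in which it was high, and was not well above background in Cy3 on any array. With Cy3 raised to its floor, the mean of Glra3 was 1.27-fold lower in the SH-80 channel, a bound on the mean alone.

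**Figure D1:**
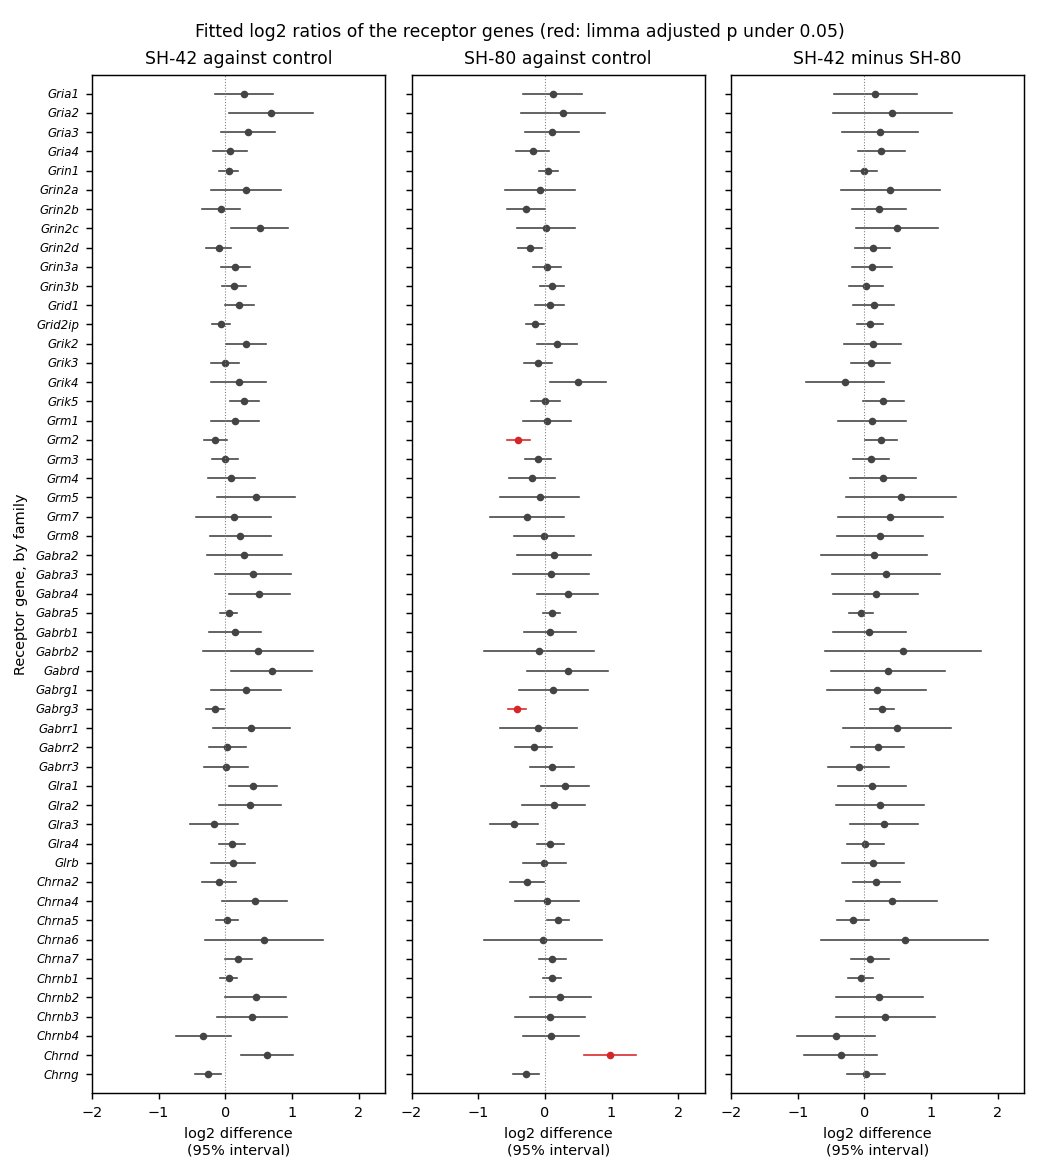
Fitted log2 ratios (points) with 95% intervals (lines) of 52 of the 56 tested receptor genes, down the page by family, in 3 panels: SH-42 against control on the left, SH-80 against control in the middle, and SH-42 minus SH-80 on the right. Red marks an adjusted p under 0.05, reached by Chrnd, Gabrg3 and Grm2 with SH-80 and by no gene in the outer panels.

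RefSeq promoter windows, 250 bases before to 50 after the annotated start (GRCm38.p6), were at hand for 46 of the 65 receptor genes, among them both genes that fell with SH-80. The windows of both are shown because these genes were called with SH-80, and capitals mark the GC box GGGCGG, searched on both strands. Grm2 held 4 matches, the first 111 bases before the start, in a window of 72.0% G and C. Gabrg3 held 1 match, 10 bases before the start and on the strand opposite to the one printed, in a window of 61.0% G and C. Over all 32851 windows 35.7% held a match, and of the 55 windows of receptor genes 28 did, or 50.9%. The E-box CANNTG was in 60.0% of the receptor windows and 72.3% of all windows, and the TATA box TATAAA in 10.9% and 13.6%.
Gabrg3, chr7:57387166-57387465, minus strand: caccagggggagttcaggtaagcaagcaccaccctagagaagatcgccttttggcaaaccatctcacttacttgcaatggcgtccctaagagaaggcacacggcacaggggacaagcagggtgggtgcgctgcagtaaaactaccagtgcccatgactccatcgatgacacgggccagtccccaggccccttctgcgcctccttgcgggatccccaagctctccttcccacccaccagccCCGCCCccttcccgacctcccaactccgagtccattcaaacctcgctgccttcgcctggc
Grm2, chr9:106656060-106656359, minus strand: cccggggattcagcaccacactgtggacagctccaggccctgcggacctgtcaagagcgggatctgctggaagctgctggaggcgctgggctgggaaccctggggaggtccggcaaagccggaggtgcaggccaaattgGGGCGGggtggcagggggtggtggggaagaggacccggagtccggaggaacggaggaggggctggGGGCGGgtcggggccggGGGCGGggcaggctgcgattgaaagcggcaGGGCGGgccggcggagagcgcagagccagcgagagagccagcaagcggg

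With SH-42, 0 of the 56 receptor genes were called in either direction by limma, where 0.0498% of all features were called higher and 0.54% lower. At an unadjusted p under 0.05 there were 10 (17.9%, against 23.5% of all features), 8 higher and 2 lower. The receptor genes nevertheless lay above the rest of the array: their median log2 ratio was 0.20, with 44 of 56 above 0, while the median of all features was -0.03, with 43.0% above 0. That median rested on SH-42 replicate 1. Without it, the median was -0.02, with 26 of 56 above 0. In that fit 0 receptor genes were called, where 0.34% of all features were called higher and 1.44% lower.

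Array by array, the median log2 ratio of the receptor genes was 0.59, -0.01 and -0.01 on SH-42 replicates 1 to 3 and -0.01, 0.08 and -0.01 on SH-80 replicates 1 to 3. On SH-42 replicate 1, 48 of 56 were positive, 30 exceeded 0.5 and 18 exceeded 1. Ratios over 0.5 were held by 53.6% of the receptor genes and 8.49% of all features on that array. On each of the other arrays at most 2 receptor genes exceeded 0.5. SH-42 replicate 1 had the highest ratio of the 6 arrays for 43 of the 56 receptor genes (76.8%) and for 36.8% of all features. With the processed signals of the scanner software in place of the background-corrected ones, the receptor median on that array was 1.06.

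**Figure D2:**
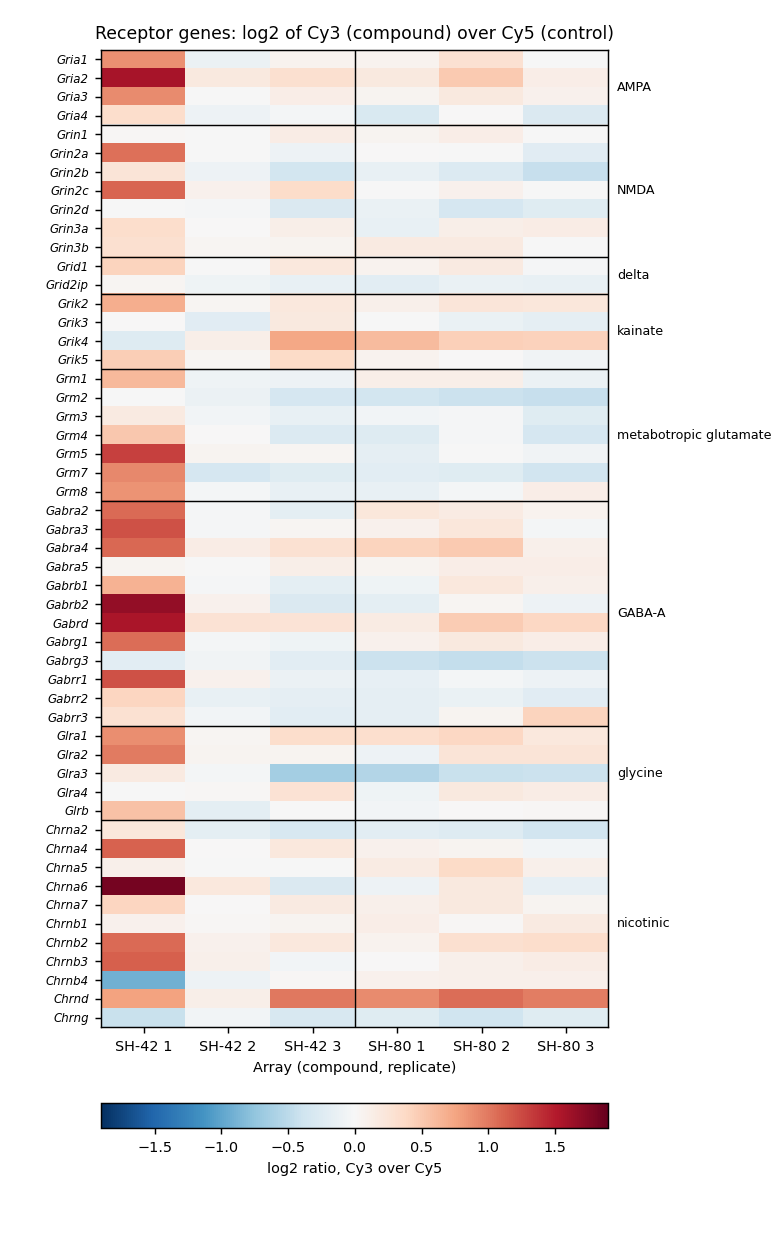
Log2 ratio of Cy3 over Cy5 (colour) for 52 of the 56 tested receptor genes (rows, by family) on each array (columns, SH-42 left of SH-80). The first column holds most of the high ratios, up to 1.82 for Chrna6, and Chrnb4 there is at -0.91.

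The high ratios lay in the control channel of that array. Of the receptor genes, 43 were well above background in both channels on all 6 arrays. Their Cy3 levels spanned a median of 0.16 log2 units over the 6 arrays, and their Cy5 levels a median of 1.06, or 0.29 without SH-42 replicate 1. Relative to the mean of the other 5 arrays, SH-42 replicate 1 had a median level of -0.04 in Cy3 and of -0.85 in Cy5. Its Cy5 level was the lowest of the 6 for 39 of 43 receptor genes (90.7%) and for 45.8% of the 18224 features bright in the same way. For those features the median Cy5 level relative to the other arrays was -0.08. Channel levels are on a scale that gives all arrays the same distribution of mean levels.

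Chrna6, a nicotinic alpha subunit known from retinal ganglion cells, had the widest span in Cy5. Its Cy3 level was 13.28, 13.25 and 13.16 with SH-42 and 13.26, 13.26 and 13.24 with SH-80. Its Cy5 level was 11.46, 13.05 and 13.43 on the SH-42 arrays and 13.36, 13.07 and 13.40 on the SH-80 arrays. The control channel of SH-42 replicate 1 was thus below that of every other array, while the compound channel did not stand apart.

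Gria2, the AMPA subunit that limits calcium entry, had Cy3 levels of 10.29 to 10.56 throughout. Its Cy5 levels were 8.99, 10.15 and 10.12 on the SH-42 arrays and 10.26, 9.96 and 10.16 on the SH-80 arrays. The same array was low as for Chrna6.

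**Figure D3:**
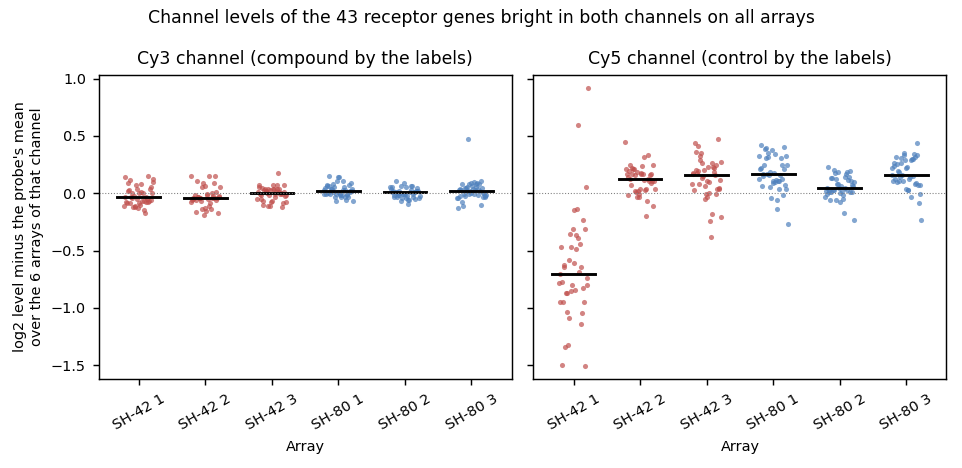
Log2 level of each of the 43 receptor genes bright in both channels, minus the probe's mean over the 6 arrays, in Cy3 (left) and Cy5 (right), by array; black lines are medians. Cy3 levels lie near 0 on all arrays, and only the Cy5 channel of SH-42 replicate 1 lies low as a group.

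By family, the median log2 ratio on SH-42 replicate 1 was 1.08 for the 15 tested GABA-A genes, 0.88 for the 4 AMPA genes and 0.62 for the 7 metabotropic glutamate receptor genes. It was 0.55 for the 5 glycine receptor genes, 0.40 for the 11 nicotinic genes, 0.30 for the 7 NMDA genes, 0.24 for the 4 kainate genes and 0.04 for the 3 delta genes. On the other 5 arrays every family median lay between -0.23 and 0.28. GABA-A, AMPA and metabotropic glutamate receptor genes thus lay highest on the array that stood apart and near 0 elsewhere.

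Within the GABA-A family, 14 of 15 genes were positive on SH-42 replicate 1 and 10 exceeded 1. These included Gabrb2 (1.66), a common beta subunit, Gabrd (1.55) and Gabrr1 (1.21), the rho subunit of the slow GABA channels of bipolar cells. Gabrr2, another rho subunit, was at 0.40, and Gabrg3, at -0.20, was the negative member. Among glutamate receptors, Grm5, which acts through calcium release, was at 1.30, Grin2c, a regulatory NMDA subunit, at 1.11, and Grin2a, another, at 1.05. Grin1, the NMDA subunit that every NMDA channel needs, was at 0.02, but its Cy3 was not well above background on any array.

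Chrnb4 and Grik4 went the other way on the same array. Chrnb4, the beta subunit of the ganglionic type of nicotinic receptor, had log2 ratios of -0.91, -0.09 and 0.02 with SH-42 and of 0.08, 0.09 and 0.10 with SH-80. Its Cy5 level was 10.08, 9.20 and 8.96 on the SH-42 arrays and 8.89, 8.93 and 8.93 on the SH-80 arrays, so the control channel of SH-42 replicate 1 was high. Grik4 had log2 ratios of -0.25, 0.12 and 0.74 with SH-42 and of 0.60, 0.46 and 0.43 with SH-80. Its Cy5 level was 9.21, 8.73 and 8.23 on the SH-42 arrays and 8.47, 8.44 and 8.58 on the SH-80 arrays, again highest on SH-42 replicate 1.

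Markers of retinal cell types moved on the same array. On SH-42 replicate 1 the median log2 ratio was 0.53 for rod, 0.94 for bipolar, 1.00 for amacrine and 0.93 for ganglion cell markers, with all 10 of each list positive, and 0.16 for horizontal cell markers, with 4 of 6 positive. It was -1.02 for Muller glia markers (0 of 8 positive), -1.66 for microglia (0 of 10), -2.50 for skeletal muscle (2 of 10) and 1.54 for lens (10 of 10). In the Cy5 channel of that array the log2 of the summed signal of the amacrine list was 15.19, against 15.94 to 16.22 on the others. That of the ganglion cell list was 14.90, against 15.94 to 16.24. For the Muller glia list it was 18.47 there and 17.42 to 17.74 on the others. The part of these shifts in the receptor ratios was not tested. In whole retina, fewer cells of a type and less RNA per cell cannot be told apart.

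**Figure D4:**
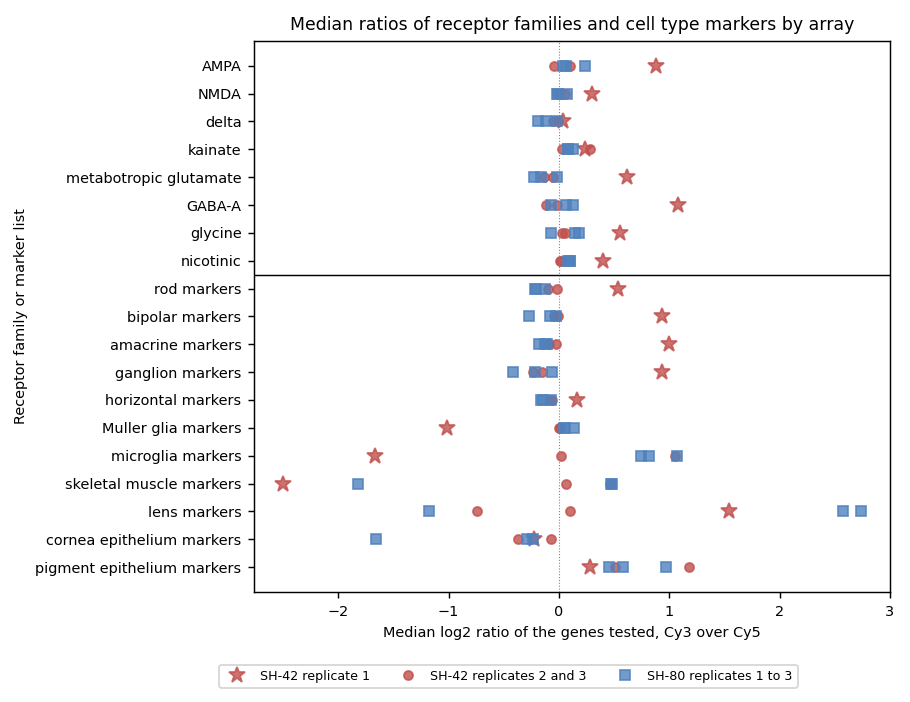
Median log2 ratio of Cy3 over Cy5 on each array for the tested genes of 8 receptor families (above the line) and of 11 marker lists (below it); stars are SH-42 replicate 1, circles SH-42 replicates 2 and 3, squares SH-80. Stars lie right of the other arrays for AMPA (0.88), metabotropic glutamate (0.62) and GABA-A (1.08) receptors and for amacrine (1.00) and bipolar (0.94) markers, and left of them for Muller glia (-1.02).

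Between the compounds, which were given at the same concentration and taken at the same day, 0 of 56 receptor genes differed by limma, and 0% of all 24089 features were called higher and 0% lower in SH-42 minus SH-80. At an unadjusted p under 0.05 there were 2 receptor genes (3.6%, against 3.91% of all features). The median difference of the receptor genes was 0.18, with 48 of 56 above 0, against 0.02 for all features. Without SH-42 replicate 1 it was -0.02, with 25 of 56 above 0, and within slide 2, which holds 1 SH-42 and 3 SH-80 arrays, it was -0.02 as well.

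Gabrg3 had a difference of 0.26 (95% interval 0.08 to 0.44, unadjusted p = 0.012 by limma, adjusted p = 0.69), and Grm2 one of 0.25 (0.0042 to 0.50, unadjusted p = 0.047, adjusted p = 0.69). The fall of both genes with SH-80 was therefore not shown to differ from their ratios with SH-42. For Chrnd the difference was -0.35 (-0.90 to 0.20), and for Grik5, a kainate subunit that works with partner subunits, 0.28 (-0.03 to 0.59). Over the 56 genes the intervals had a median half-width of 0.51, and 40 of them lay within 1 log2 unit of 0. The other 16 leave room for a larger difference between SH-42 and SH-80.

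Of the 5 muscle-type nicotinic subunit genes, Chrnd, Chrng and Chrnb1 were tested, while no probe of Chrna1 or Chrne passed the filter. Chrng, the gamma subunit of the fetal muscle receptor, had log2 ratios of -0.42, -0.05 and -0.31 with SH-42 and of -0.23, -0.39 and -0.23 with SH-80. All 6 were negative and the compounds overlapped, with Cy3 not well above background on any array. The fitted values were -0.26 ± 0.08 with SH-42 (adjusted p = 0.16) and -0.28 ± 0.08 with SH-80 (adjusted p = 0.067; SE, n = 3 arrays each, limma), and neither passed. Chrng passed the filter only through Cy5, the channel in which it was high. It was called with both compounds without background correction (-0.30 with SH-42 and -0.23 with SH-80), from processed signals (-1.16 and -0.73) and in the deposited value table (-1.18 and -0.72), and with SH-80 under 3 further alternatives. With median centring it was at 0.12 with SH-42 and 0.18 with SH-80. Chrnb1, the beta subunit of muscle receptors, lay between 0.02 and 0.17 on all 6 arrays.

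Skeletal muscle markers varied between arrays. Their median log2 ratio was -2.50, 0.06 and 0.46 on the SH-42 arrays and 0.47, -1.82 and 0.48 on the SH-80 arrays. SH-80 replicate 2, with low muscle marker ratios, had a Chrnd ratio of 1.06, and SH-80 replicates 1 and 3 had 0.90 and 0.98. The Cy5 level of Chrnd was 7.29 on SH-42 replicate 1, the only Cy5 channel in which it was well above background. It was 6.52 to 6.87 on the other arrays, with 6.56 on SH-80 replicate 2. The Cy3 level of Chrnd was 8.06 on SH-42 replicate 1 and 6.98 to 7.62 on the others. Over all arrays the log2 of the summed signal of the muscle list ran from 11.27 to 11.75 in Cy3 and from 10.79 to 14.69 in Cy5. In Cy5 it was 14.68 on SH-42 replicate 1 and up to 14.69 on the others. The part of muscle tissue in the Chrnd ratio was not tested. Of the muscle markers, 2 of the 10 tested were not well above background in Cy3 on any array.

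**Figure D5:**
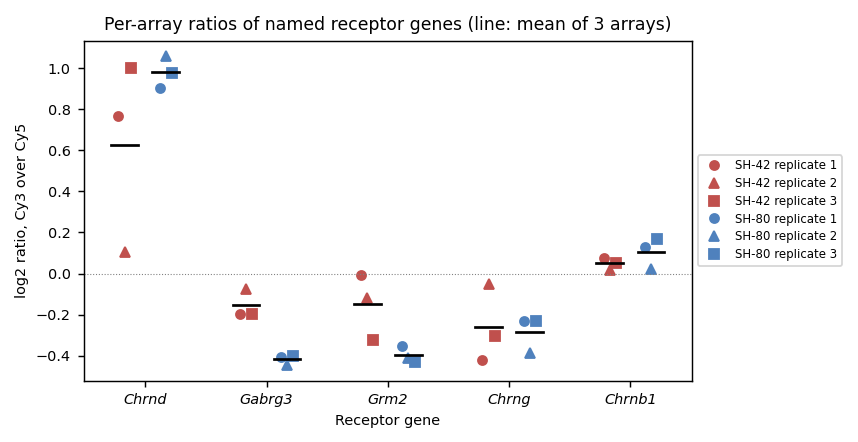
Log2 ratio of Cy3 over Cy5 of 5 receptor genes on each array, SH-42 (red) left of SH-80 (blue), with lines at the mean of the 3 arrays. Gabrg3 and Grm2 lie lower on the SH-80 arrays (-0.45 to -0.40 and -0.43 to -0.35) than on the SH-42 arrays, and Chrnd lies above 0 on all 6.

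The neuronal nicotinic subunits were spread more widely on SH-42 replicate 1. Chrnb2, a beta subunit common in the brain, had log2 ratios of 1.08, 0.08 and 0.21 with SH-42 and of 0.06, 0.30 and 0.33 with SH-80. Chrna5, an accessory subunit, was at 0.10, -0.01 and -0.0023 with SH-42 and at 0.15, 0.36 and 0.10 with SH-80, with Cy3 not well above background on any array. Neither passed in the fit over the 6 arrays, where the adjusted p of Chrnb2 was 0.22 with SH-42 and 0.43 with SH-80. Without SH-42 replicate 1 both were called with SH-80 by limma (adjusted p = 0.042 for Chrnb2 and 0.046 for Chrna5), and Chrna5 was also called with SH-80 under median centring (0.44, adjusted p = 0.031).

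Over the 56 receptor genes, 14 (25.0%) kept their sign on all 6 arrays, against 34.0% of all features. Positive throughout were Chrna7, Chrnb1, Chrnb2, Chrnd, Gabra4, Gabrd, Glra1, Gria2 and Grik2. Those negative throughout included Chrng, Gabrg3, Grin2d and Grm2. Chrng and Grin2d passed the filter only through Cy5 (6 arrays each), the channel in which they were high. Their Cy3 was not well above background on any array. Of the genes positive throughout, Gabra4, a GABA-A alpha subunit, had log2 ratios of 1.1, 0.14 and 0.29 with SH-42. With SH-80 it had 0.43, 0.50 and 0.10, and its adjusted p by limma was 0.19 with SH-42 and 0.24 with SH-80. Glra1 had 0.88, 0.04 and 0.33 with SH-42 and 0.32, 0.40 and 0.20 with SH-80. With no dye exchange, a sign kept on every array may be a treatment effect or a dye effect, and these cannot be told apart.

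Different probes of the same receptor gene did not always give the same ratio. Of 14 genes with several passing probes, the sign of the mean ratio differed between probes for 6 with SH-42 (Gabrr3, Grin2a, Grin2b, Grik2, Grm4 and Grm5) and for 4 with SH-80 (Gria3, Gabrr3, Grik2 and Grm5). With SH-42 the negative probes of Gabrr3, Grin2a and Grm4 were well above background in Cy3 on 0 arrays, and that of Grik2 on 1. These probes passed the filter through Cy5, the channel in which they were high. All probes of Gria3, Grin2b and Grm5 were well above background in both channels on all 6 arrays. On SH-42 replicate 1 the brightest probe of Grm5 was at 1.30, and its other probes were at 0.48 and -0.09. For Gria2 the values were 1.57 for the brighter and 0.39 for the dimmer probe.

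Genes of the same pathways were examined as lists. Of 31 tested genes of glutamate synapses, 2 rose and 1 fell with SH-80, where 4.62% of all features were called higher and 10.1% lower. Dlg4, the scaffold of excitatory synapses, had log2 ratios of 0.38, 0.40 and 0.44 on the SH-80 arrays and a fitted value of 0.41 ± 0.08 (SE, n = 3, limma adjusted p = 0.034). Pick1, which sorts AMPA receptors, was at 0.29 ± 0.06 (adjusted p = 0.033), and Homer3, which binds metabotropic glutamate receptors, at -0.34 ± 0.06 (adjusted p = 0.030). Without SH-80 replicate 1, 2 or 3, 0 features of the array were called, these included.

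Of 9 tested genes of acetylcholine signalling, 0 rose and 1 fell with SH-80, against 4.62% and 10.1% of all features. The gene that fell was Rapsn, which clusters muscle-type nicotinic receptors, at -0.30 ± 0.06 (SE, n = 3, limma adjusted p = 0.036). Of 11 GABA and glycine genes and of 6 GABA-B and muscarinic receptor genes, 0 were called with SH-80. With SH-42 and in SH-42 minus SH-80, 0 genes of any of these lists were called by limma. On SH-42 replicate 1 the median log2 ratio was 0.48 for the glutamate list (25 of 31 positive), 0.56 for the GABA and glycine list (10 of 11), 0.87 for the acetylcholine list (7 of 9) and -0.02 for the GABA-B and muscarinic receptors (3 of 6). Gad1 and Gad2, which make GABA, were at 1.54 and 1.21 there, and Chat, which makes acetylcholine, at 0.97.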

How the data were processed

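The members and gene lists were chosen with earlier results of these data known. Per the file headers, the deposited scanner files hold spot intensity and local background in both channels and a log10 ratio of processed red over green. Agilent Feature Extraction is given as version 11.0.1.1 there and as 9.3.2.1 in the submitters' processing notes. The deposited value table holds, from its values, log2 of processed Cy5 over Cy3 with column medians of -0.0531, -0.0606, -0.0612, -0.0611, -0.0464 and -0.0754. It adds a constant per array, so scale and centring are known, and which RNA each channel held is not.

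Here median intensities were background-corrected (normexp, offset 50) and loess-normalized within arrays. Array levels were scaled between arrays (Aquantile). Outlier-flagged spots were dropped. Of 39429 probes 26055 matched a RefSeq symbol by accession; the scanner files carry no gene name column, so members were found by symbol. A probe was kept where 3 or more arrays had it well above background in Cy3 or Cy5 (9962 removed) and the brightest per gene was used, leaving 24089 features. These were fitted with 1 coefficient per compound in limma 3.58.1 (R 4.3.3), and p-values, all two-sided, were adjusted by Benjamini-Hochberg with a threshold of 0.05. Where a channel was below background on all arrays of a compound, a bound was set from the lowest signal well above background. The test was checked on simulated data with 200 changed genes. At a log2 change of 0.5 it recovered 44.8% of them with SH-42, 37.3% with SH-80 and 14.9% in SH-42 minus SH-80. At a change of 1 these shares were 74.6%, 82.1% and 53.7%.

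Genes named were those called, the 3 of smallest p per family and comparison, the muscle-type nicotinic subunits, the extremes of Cy5 range, and up to 4 of smallest p per pathway list. Some members are counted in the totals and are not reported here by name. Other genes named by value on SH-42 replicate 1 were chosen after their values were seen. Alternatives changed the background correction, normalization, probe filter, probe averaging, slide and replicate blocks, the arrays that share the spread, and each replicate in turn.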

Additional observations from a re-analysis of the deposited data

Results flagged for a closer look

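The 6 control channels were compared with each other gene by gene, and a channel was taken to stand apart where its gap to the nearest other channel, divided by the whole range, exceeded Dixon's 95% critical value for 6 samples. Chance does this for about 1 in 20 genes. Of the 50 receptor genes well above background in every Cy5 channel, 31 (62.0%) had such a channel, and in all 31 it was SH-42 replicate 1, lowest for 30 and highest for 1. Of 21930 features 23.3% had a channel apart, and for 11.6% it was SH-42 replicate 1 as the lowest. The labels do not say whether the 6 channels came from 6 separate control tubes.

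Among the receptor genes named in the text, the log2 Cy5 level of SH-42 replicate 1 lay apart and low for 23. For AMPA receptors it was 8.99 for Gria2, 8.76 for Gria3 and 10.73 for Gria4. For NMDA and delta receptors it was 7.17 for Grin2a, 7.53 for Grin2c and 6.95 for Grid1. For metabotropic receptors it was 9.23 for Grm5, 8.75 for Grm7 and 10.50 for Grm8. For GABA-A receptors it was 9.55 for Gabra3, 7.15 for Gabra4, 9.34 for Gabrb2, 9.64 for Gabrd, 11.34 for Gabrr1 and 10.46 for Gabrr2. For glycine receptors it was 7.12 for Glra1, 7.53 for Glra2 and 9.22 for Glrb. For nicotinic receptors it was 7.96 for Chrna4, 11.46 for Chrna6, 7.09 for Chrna7, 9.12 for Chrnb2 and 7.07 for Chrnb3. It lay apart and high for Chrnb4, at 10.08, where the other 5 control channels were at 8.89 to 9.20. The other 5 control channels were at 13.05 to 13.43 for Chrna6, the gene with the widest gap among the low ones in this list.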

How the results depend on the processing

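Counts of receptor genes called with SH-42 against control, 0 in the analysis reported, were 3 without background correction, 5 from processed signals, 5 from the deposited value table, 12 with median centring and 3 within slide 2. All features called came to 13.3%, 13.4%, 15.7%, 37.5% and 4.97% in these fits, against 5.4%, 8.9%, 8.9%, 21.4% and 5.4% of the receptor genes. With SH-80 the count of 3 was 5 without background correction, 6 from processed signals, 6 from the deposited value table, 7 with median centring, 7 with no probe filter and 1 with the strict probe filter, which leaves out Chrnd and Gabrg3. All features called came to 19.8%, 18.1%, 20.2%, 15.1%, 15.8% and 11.5% in these fits, above the share of receptor genes (2.3% to 12.5%) in each. The count was 17 from the SH-80 arrays alone, 0 with slide as a fixed block, and 3 with slide as a random block. Within slide 2, which holds all SH-80 arrays, the fit for SH-80 is the same as from those arrays alone. Leaving out each replicate gave 0 to 20: 20 when SH-42 replicate 1 was left out, 3 for its replicate 2, 5 for its replicate 3, and 0 for each SH-80 array left out. For SH-42 minus SH-80 every alternative run gave 0. The median with SH-80 (0.03) was -0.062 with median centring, which shifts the median of all features to -0.15, and 0.16 with slide as a fixed block. Without each replicate in turn, the median with SH-42 ranged from -0.018 to 0.30 and that of SH-42 minus SH-80 from -0.018 to 0.28.

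A replicate block gave 0 receptor genes with SH-80, in place of 3, and 0 of all features were called in that fit. Adjusted p-values by limma were 0.082 for Chrnd, 0.082 for Gabrg3 and 0.083 for Grm2. Deviations of arrays of the same number correlated across features at -0.15, -0.43 and 0.18 for replicates 1 to 3. Those of unlike number correlated at -0.30 to 0.35. Whether arrays of the same number share more than a number cannot be told from so few arrays.

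Of 1381 values of single genes under alternatives, 1255 kept direction and side of the threshold, 58 came past it, 16 lost it and 52 changed sign. For SH-80, the SH-80 arrays alone and slide 2 are the same fit and are counted under both. Grm2 with SH-80 also lost its call with scale normalization (adjusted p = 0.083). The sign changed, in no comparison in which the gene had been called, and the cause was not tested. For SH-42 against control it changed with median centring for Chrng (0.12), Grik5 (-0.13) and Grm8 (-0.21), with processed signals for Glra4 (-0.28), with the deposited table for Glra4 (-0.31), within slide 1 for Grik4 (-0.066) and within slide 2 for Grm8 (-0.14). For SH-80 against control it changed with median centring for Chrng (0.18), Gria3 (-0.10), Grin2d (0.0034) and Grm3 (0.35), and with the mean of probes for Grik2 (-0.049). Glra4 was at -0.50 with processed signals, -0.49 in the deposited table and -0.051 with slide as a fixed block, which also gave Grm3 0.0014 and Grm4 0.065. Grin3b was at -0.014 with processed signals and -0.0051 in the deposited table. For SH-42 minus SH-80 processed signals gave Grid2ip -0.0097 and Grik3 -0.039, and the deposited table gave Grid2ip -0.043 and Grik3 -0.073. Grik3 was at -0.0041 without background correction and -0.11 with scale normalization, which gave Glrb -0.083. With slide as a fixed block, and equally within slide 2, the differences were 0.023 for Chrnd, -0.020 for Gabrr1, -0.074 for Glra2, -0.18 for Glra3, -0.0040 for Glrb, 0.24 for Grik4, -0.022 for Grin2a, -0.061 for Grin2b and -0.060 for Grm4. Without each replicate in turn, values with SH-42 ranged from -0.017 to 0.47 for Gria1, -0.066 to 0.43 for Grik4 and -0.092 to 0.40 for Grm8. Those of SH-42 minus SH-80 ranged from -0.020 to 0.67 for Gria2, -0.045 to 0.41 for Gria3, -0.0030 to 0.20 for Grik3, -0.077 to 0.39 for Glra2 and -0.10 to 0.28 for Glrb.

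The arrays are few, dim probes such as those of Chrnd, Chrng and Glra3 carry little signal over background, and no dye exchange separates dye from treatment. Of the 65 receptor genes, 9 could not be tested at this signal: Chrna1, Chrna10, Chrna3, Chrna9, Chrne, Gabra6, Gabre, Gabrp and Gabrq.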

Other observations

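Further members of the families had the same shape on SH-42 replicate 1, and these were chosen after their values were seen. Gabra3, an alpha subunit of the GABA-A receptor, had log2 ratios of 1.21, -0.02 and 0.04 with SH-42 and of 0.08, 0.22 and -0.04 with SH-80. Chrnb3, a nicotinic beta subunit, had 1.14, 0.09 and -0.05 with SH-42 and 0.0054, 0.10 and 0.14 with SH-80. Chrna4, an alpha subunit common in the brain, had 1.12, 0.0066 and 0.19 with SH-42 and 0.09, 0.05 and -0.05 with SH-80. For each of these genes only the first SH-42 array exceeded 0.5.

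Grin3a, an NMDA subunit that binds glycine, differed between arrays in both channels. Its Cy3 levels were 7.38, 7.96 and 8.22 with SH-42 and 7.46, 7.46 and 7.60 with SH-80. Its Cy5 levels were 7.04, 7.95 and 8.11 on the SH-42 arrays and 7.60, 7.35 and 7.46 on the SH-80 arrays. Both channels of SH-42 replicates 2 and 3 were above those of the other arrays, and the log2 ratios were -0.14 to 0.34. Gabrr3, a rho subunit of GABA channels, had a Cy3 level of 8.78 on SH-80 replicate 3, where the other Cy3 levels were 8.16 to 8.27. Its brightest probe averaged 0.10 with SH-80 and its other probe, not well above background in Cy3 on any array, -0.36.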
